A study of Mus musculus with 25 samples.

Results

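Lysosomal genes were examined in RNA sequencing of microglia, the resident macrophages of the brain, sorted by FACS as CD11b+; CD45med cells from mice that lack Bin1 in neurons. The members are 37 genes given by symbol, namely 11 proteases, the protease inhibitor Cst3, 6 glycosidases, 6 lipid enzymes or lipid binding proteins, the granulin precursor Grn, 7 membrane proteins, 3 proton pump genes and the transcription factors Tfeb and Tfe3. All 37 were found among the 43411 genes of the deposited table, and all 37 were among the 12908 genes that could be tested. The mice were 3 months old, of the crossed lines B6.129S6-Bin1tm2Gcp/J and FVB/N-Tg(Thy1-cre)1Vln/J. Homozygous mice (Homo-cKO, Bin1flox/flox with Thy1-Cre+) numbered 10, heterozygous mice (Het-cKO, Bin1flox/wt with Thy1-Cre+) numbered 7, and WT littermates (Bin1flox/wt with Thy1-Cre-) numbered 6. The WT littermates therefore also carry 1 floxed Bin1 allele. The paper describes deletion by Thy1-Cre as specific to forebrain excitatory neurons and makes no statement on Cre in the sorted microglia. Another labelled WT female and heterozygous male had no column and were not analysed here.

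Lysosomes are acidic compartments that digest what a cell takes up or discards. A proton pump, the V-ATPase, acidifies them, hydrolases cut proteins, sugars and lipids inside, and heavily glycosylated membrane proteins such as LAMP1 line them. TFEB and TFE3 are transcription factors that bind an E-box motif in the promoters of many lysosomal genes, and microglia, which engulf debris and synapses, make large amounts of lysosomal RNA.

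Total counts per mouse ranged from 10812969 to 16734846. All WT and heterozygous mice have animal numbers of 1 range, while 6 homozygous mice are numbered 03xx and 4 are numbered 04xx, so that genotype and animal-number range cannot be told apart. Bin1 itself was at 699 ± 88.3 (SD, n = 6) CPM in WT littermates, 692 ± 40.6 (SD, n = 7) CPM in heterozygous mice and 481 ± 130.0 (SD, n = 10) CPM in homozygous mice (CPM being counts scaled to the TMM-adjusted library size), with a log2 fold change of homozygous against WT of -0.60 (adjusted p = 0.0017). In homozygous F1, F2, M1 and M2 Fos, an immediate-early gene, was at 824 to 1460 CPM, against 0.363 to 7.0 CPM in the other homozygous mice. WT replicate M1 was the highest WT mouse for 32 of the 37 lysosomal genes, among them all 12 that fell in homozygous mice against WT. The share of all genes for which this mouse was the highest was not counted. WT replicate M1 also had the lowest TMM factor of the 23 mice, 0.896, and a lower factor gives a higher CPM. Counts against WT are therefore also given without it. The factors also differed by genotype, from 0.896 to 1.023 in WT littermates, 0.938 to 1.023 in heterozygous mice and 0.998 to 1.069 in homozygous mice. CPM and fitted fold changes use these factors, whereas shares of all counts do not. Markers of microglia were abundant. Their summed level over 9 genes was 47920 to 69280 CPM in WT littermates and 42290 to 49960 CPM in homozygous mice. Summed levels in WT littermates were 37.4 to 69.8 CPM for 5 endothelial markers and 6.16 to 28.4 CPM for 6 border macrophage markers. In homozygous mice they were 27.1 to 52.25 CPM and 5.50 to 32.9 CPM. In each of these 2 lists 1 gene, Cldn5 and Mrc1 respectively, was listed at 0 in every mouse. Of the 5 endothelial markers, 4 (Cldn5 among them) had a mean below 1 CPM, so that their sum is nearly that of 1 gene.

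Lysosomal RNA made up a large part of the microglial libraries. The 37 genes took 10.8 to 11.5% of all counts in WT littermates (median 11.1%), 10.0 to 11.4% in heterozygous mice (median 11.0%) and 8.90 to 11.2% in homozygous mice (median 9.63%). Cst3 alone held 3.89% ± 0.165 (SD, n = 6) of the counts in WT littermates and 3.21% ± 0.598 (SD, n = 10) in homozygous mice. The 35 genes other than Cst3 and Ctsd took 4.72 to 5.32% in WT littermates (median 4.88%) and 4.14 to 5.02% in homozygous mice (median 4.71%), so that the ranges overlapped and the homozygous median lay just below the lowest WT littermate. In bulk RNA of sorted cells, fewer cells of a type and less RNA per cell cannot be told apart.

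Per kilobase of transcript, which allows genes to be compared, Cst3 was the highest of the 37 over all mice at 41920 CPM per kb. It was followed by Ctsd (9896), Ctss (5679), Lgmn (2741) and Laptm5 (2656), all in CPM per kb, of which Lgmn and Laptm5 were closer to each other than the spread between mice. Psap (1084 CPM per kb), the precursor of the saposins, and Grn (1126 CPM per kb), the precursor of granulins, stood at nearly the same level. The transcription factors were low, with Tfe3 at 70.1 and Tfeb at 30.3 CPM per kb. Gla, the α-galactosidase that degrades globotriaosylceramide, was by far the lowest at 2.28 CPM per kb.

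**Figure D1:**
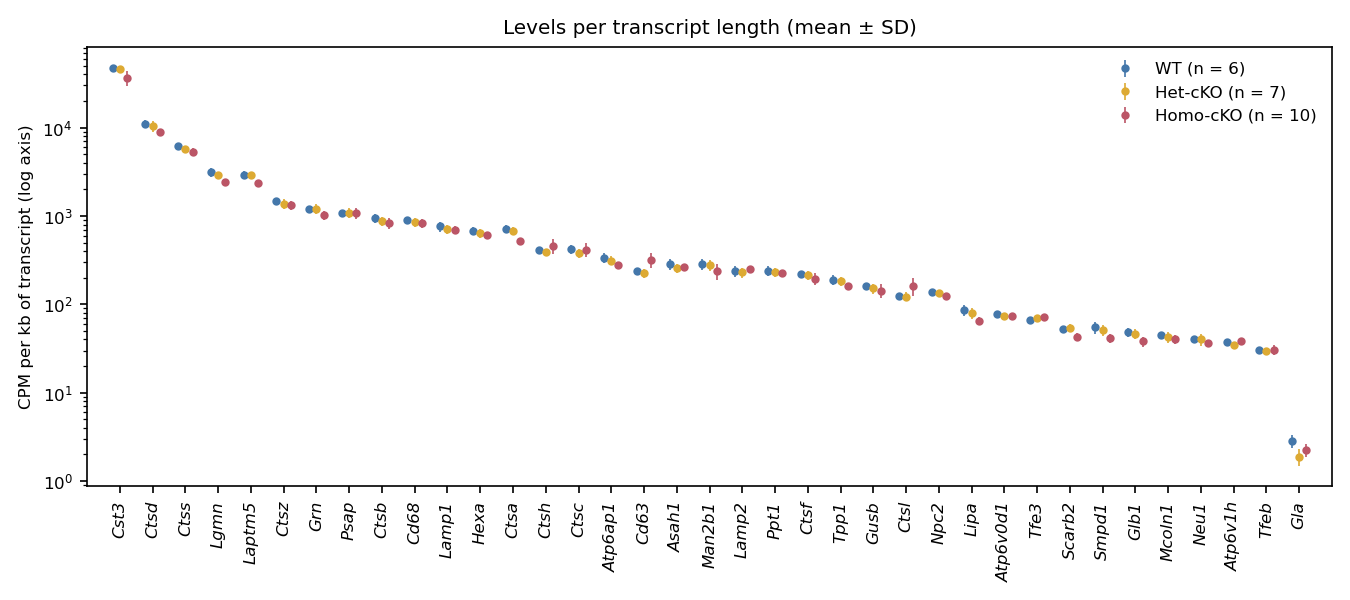
Level of each of the 37 lysosomal genes in CPM per kilobase of transcript (log axis), as mean ± SD over 6 WT, 7 Het-cKO and 10 Homo-cKO mice, ordered by the mean over all mice. Cst3 stands highest and Gla lowest, and the genotypes lie close together relative to the distance between genes.

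Between homozygous mice and WT littermates, 12 of the 37 lysosomal genes fell and 1, Cd63, rose at an adjusted p below 0.05 (edgeR's quasi-likelihood test, adjusted over all genes tested). Over all 12908 genes, 7.09% fell and 5.66% rose. Among the 9021 genes whose mean level was at least that of the lowest of the 37, 8.8% fell. That lowest gene is Gla, at a mean of 7.22 CPM and far below the others, so this share is not matched to their level. Every change was small. None of the 37 genes passed a fold change above 1.5 as well, which 3.4% of all genes did, and the fitted log2 fold changes ran from -0.48 to 0.35 with a median of -0.17 (median of all genes 0.012). The sign was negative in 30 genes and positive in 7, a split that was not counted over all genes. Without WT replicate M1, 8 genes fell and 1 rose, against 4.39% and 3.71% of all genes, and the median was -0.13.

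**Figure D2:**
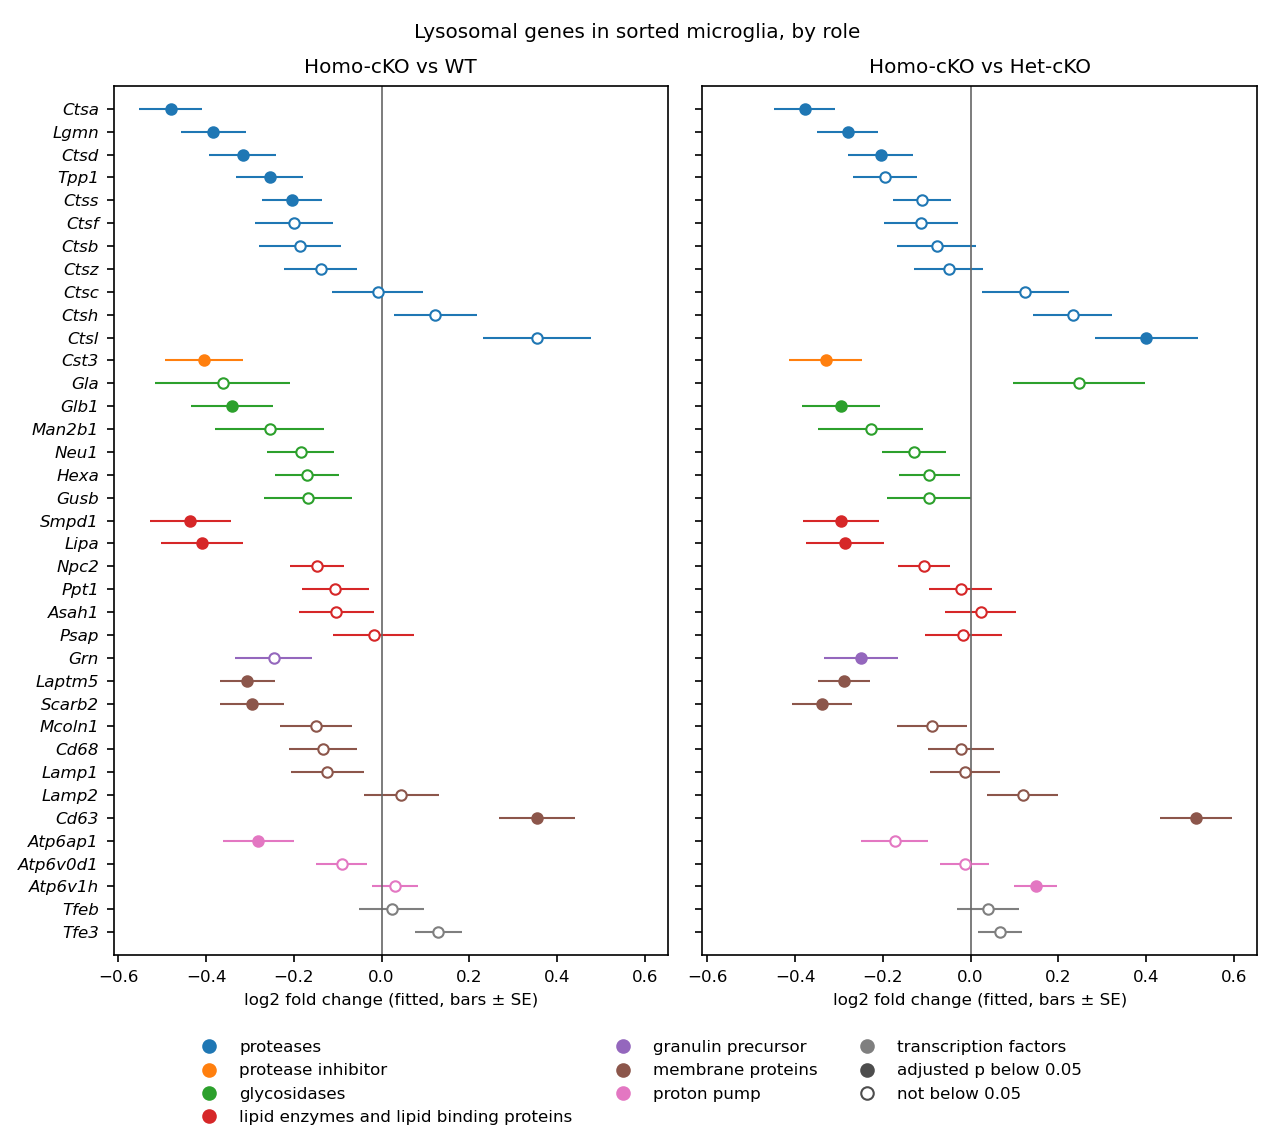
Fitted log2 fold change ± SE of each lysosomal gene, coloured by role, for Homo-cKO vs WT (left) and Homo-cKO vs Het-cKO (right). Filled circles passed an adjusted p of 0.05. In the left panel 12 filled circles lie below 0 and only Cd63 lies above, and in the right panel Ctsl, Cd63 and Atp6v1h lie above 0.

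Of the 11 proteases, 5 fell and none rose. Ctsa (ENSMUSG00000017760.13, chromosome 2 from 164832873 to 164841032 of GRCm38) encodes cathepsin A, a carboxypeptidase that also keeps β-galactosidase and neuraminidase stable in a complex. Its lowest, median and highest levels were 2324, 2573 and 3048 CPM in WT littermates, 2148, 2590 and 2703 CPM in heterozygous mice and 1599, 1886 and 2132 CPM in homozygous mice. All 10 homozygous mice lay below every other mouse, a separation that 0.418% of all genes showed. The log2 fold change against WT was -0.48 (SE 0.072, adjusted p = 0.00024), the largest fall among the 37 genes. Lgmn (ENSMUSG00000021190.12, chromosome 12 from 102394084 to 102439813) encodes legumain, an asparaginyl endopeptidase that also matures cathepsins. It stood at 5315, 6184 and 7400 CPM in WT littermates, 5107, 5814 and 6411 CPM in heterozygous mice and 3831, 4827 and 5292 CPM in homozygous mice. All 10 homozygous mice were below all WT littermates, as for 1.14% of all genes, and 8 of 10 were below the heterozygous mice too. The log2 fold change was -0.38 (SE 0.074, adjusted p = 0.0015).

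Ctsd (ENSMUSG00000007891.13, chromosome 7 from 142375911 to 142388038) encodes cathepsin D, the main aspartic protease of lysosomes, and was the second most abundant gene by CPM of all genes tested. WT littermates had 19320, 23500 and 27300 CPM (lowest, median, highest), heterozygous mice 18260, 23640 and 26260 CPM, and homozygous mice 16540, 18760 and 21820 CPM. The groups overlapped, with 7 of 10 homozygous mice below all WT littermates. Its log2 fold change was -0.32 (SE 0.077, adjusted p = 0.0083), and without WT replicate M1 it was -0.26 (adjusted p = 0.036). Tpp1, a tripeptidyl peptidase, was at 584.7, 652.2 and 824.3 CPM in WT littermates and at 476.0, 570.3 and 630.3 CPM in homozygous mice. Its log2 fold change was -0.26 (SE 0.076, adjusted p = 0.028), but the call was lost without WT replicate M1, M3 or M4, with -0.19 without M1 (adjusted p = 0.12). Ctss, the cysteine protease cathepsin S that is typical of antigen-presenting cells, ran from 7473 to 9593 CPM in WT littermates and from 6060 to 8192 CPM in homozygous mice, with medians of 8296 and 7302 CPM. This change was at the edge of the threshold (log2 fold change -0.20, SE 0.069, adjusted p = 0.049), and only 7 of the 23 fits that left out 1 mouse kept it. Ctss was at a mean of 6595 CPM in homozygous F1, F2, M1 and M2 and 7654 CPM in the other homozygous mice, and without those 4 mice its log2 fold change was -0.13 (adjusted p = 0.29).

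The other 6 proteases did not pass. Ctsb, the abundant cysteine protease cathepsin B, was at 3881, 4419 and 5371 CPM in WT littermates, 3546, 4312 and 4828 CPM in heterozygous mice and 2838, 4014 and 4615 CPM in homozygous mice, with 3 of 10 homozygous mice below all WT littermates. Its log2 fold change was -0.19 (SE 0.094, adjusted p = 0.20). Ctsf (-0.20), Ctsz (-0.14), Ctsc (-0.0090) and Ctsh (0.12), all cysteine cathepsins, had log2 fold changes within adjusted p values of 0.15 to 0.97. Ctsl, which encodes cathepsin L, was the exception in sign and is described with the animal-number ranges.

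Cst3 (ENSMUSG00000027447.6, chromosome 2 from 148871722 to 148875692) encodes cystatin C, a secreted inhibitor of cysteine cathepsins, and was the most abundant gene of all by CPM. In WT littermates it was at 38630, 40350 and 42120 CPM and in heterozygous mice at 35080, 39850 and 42030 CPM, whereas homozygous mice had 19730, 31170 and 41770 CPM. The spread was much wider in homozygous mice (CV 19.3%) than in WT littermates (CV 3.73%), and 9 of 10 homozygous mice were below all WT littermates. Its log2 fold change was -0.41 (SE 0.089, adjusted p = 0.0040). Ctss and Lgmn, which encode proteases that cystatin C inhibits, also fell, with Ctss at the edge of the threshold. The cysteine cathepsins among the members apart from Ctss, namely Ctsb, Ctsc, Ctsf, Ctsh, Ctsl and Ctsz, did not pass against WT. Their log2 fold changes had both signs, from -0.20 for Ctsf to 0.35 for Ctsl. Whether the inhibitor and these proteases changed together was not tested.

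Among the 6 glycosidases, which remove sugars from glycoproteins and glycolipids, only Glb1 passed, and all 6 log2 fold changes were negative. Glb1 (ENSMUSG00000045594.9, chromosome 9 from 114401076 to 114474898), the β-galactosidase that clears GM1 ganglioside, stood at 97.6, 113.3 and 137.5 CPM in WT littermates, 94.2, 109.2 and 137.2 CPM in heterozygous mice and 68.8, 91.4 and 111.9 CPM in homozygous mice. In 8 of 10 homozygous mice it was below all WT littermates, and the log2 fold change was -0.34 (SE 0.093, adjusted p = 0.016). Without WT replicate M1 the call was lost at -0.28 (adjusted p = 0.066). The other glycosidases were Gla (log2 fold change -0.36, adjusted p = 0.13), Man2b1 (-0.26, adjusted p = 0.19), Neu1 (-0.18, adjusted p = 0.12), Hexa (-0.17, adjusted p = 0.13) and Gusb (-0.17, adjusted p = 0.29).

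Of the 6 genes of lipid breakdown and binding, Smpd1 and Lipa fell. Smpd1 (ENSMUSG00000037049.8, chromosome 7 from 105554360 to 105558389) encodes acid sphingomyelinase, which turns sphingomyelin into ceramide. WT littermates had 100.8, 132.7 and 163.7 CPM, heterozygous mice 95.8, 118.0 and 143.7 CPM and homozygous mice 74.8, 102.0 and 117.9 CPM. The groups overlapped, with 5 of 10 homozygous mice below all WT littermates, and the log2 fold change was -0.44 (SE 0.092, adjusted p = 0.0031). Lipa (ENSMUSG00000024781.13, chromosome 19 from 34492318 to 34527474) encodes the acid lipase that frees cholesterol and fatty acids from lipoprotein lipids. Its levels were 207.3, 254.3 and 313.0 CPM in WT littermates, 180.3, 232.7 and 277.4 CPM in heterozygous mice and 166.4, 196.8 and 227.1 CPM in homozygous mice. The log2 fold change was -0.41 (SE 0.094, adjusted p = 0.0058). Npc2 (-0.15, adjusted p = 0.12), which hands cholesterol to the membrane, Ppt1 (-0.11, adjusted p = 0.40), a thioesterase, Asah1 (-0.10, adjusted p = 0.48), acid ceramidase, and Psap (-0.018, adjusted p = 0.93) did not pass. Psap had medians of 2954 CPM in WT littermates and 2917 CPM in homozygous mice, within ranges of 2554 to 3030 and 2238 to 3384 CPM.

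Grn, which encodes progranulin, the precursor of the granulins, did not pass against WT. It stood at 2402, 2787 and 3172 CPM in WT littermates, 2329, 3004 and 3218 CPM in heterozygous mice and 1876, 2454 and 2763 CPM in homozygous mice. The log2 fold change against WT was -0.25 (SE 0.088, adjusted p = 0.066), with 4 of 10 homozygous mice below all WT littermates.

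The 7 membrane proteins moved in both directions. Laptm5 (ENSMUSG00000028581.15, chromosome 4 from 130913125 to 130936141), a transmembrane protein of haematopoietic cells that sorts receptors to the lysosome, was at 6664, 7363 and 8919 CPM in WT littermates, 6718, 7541 and 8294 CPM in heterozygous mice and 5471, 6010 and 6845 CPM in homozygous mice. Of the homozygous mice, 9 of 10 lay below every other mouse, and the log2 fold change was -0.31 (SE 0.063, adjusted p = 0.0027). Scarb2 (ENSMUSG00000029426.8, chromosome 5 from 92441314 to 92506833), which carries β-glucocerebrosidase to the lysosome, was at 230.8, 235.8 and 283.6 CPM in WT littermates, 230.4, 249.8 and 285.3 CPM in heterozygous mice and 176.2, 201.9 and 241.0 CPM in homozygous mice. Again 9 of 10 homozygous mice lay below every other mouse (log2 fold change -0.30, SE 0.073, adjusted p = 0.0091).

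Cd63 (ENSMUSG00000025351.11, chromosome 10 from 128900989 to 128912822) encodes a tetraspanin of late endosomes, lysosomes and exosomes and was the only one of the 37 genes that rose against WT. It was at 241.2, 273.8 and 280.1 CPM in WT littermates, 210.7, 254.6 and 282.8 CPM in heterozygous mice and 261.6, 357.4 and 456.5 CPM in homozygous mice. The 2 lower groups were tight, whereas homozygous mice were spread, with 8 of 10 above every other mouse. The log2 fold change was 0.35 (SE 0.086, adjusted p = 0.0083), and 0.39 without WT replicate M1 (adjusted p = 0.011). Of the 50-base stretches of its transcripts, 24.6% also occur in a pseudogene, Cd63-ps. Lamp1 was at 1467, 1635 and 2066 CPM in WT littermates, 1303, 1599 and 1817 CPM in heterozygous mice and 1317, 1549 and 1788 CPM in homozygous mice, with 2 of 10 homozygous mice below all WT littermates (log2 fold change -0.12, SE 0.083, adjusted p = 0.36). Lamp2 (0.045, adjusted p = 0.79), a second major membrane glycoprotein, Cd68 (-0.13, adjusted p = 0.29), a macrophage sialomucin, and Mcoln1 (-0.15, adjusted p = 0.25), a calcium channel, did not pass either.

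For the proton pump, Atp6ap1, an accessory subunit, stood at 647.9, 721.7 and 897.6 CPM in WT littermates, 566.9, 710.2 and 781.3 CPM in heterozygous mice and 533.4, 604.7 and 682.3 CPM in homozygous mice. Its log2 fold change was -0.28 (SE 0.081, adjusted p = 0.023), and it was lost without WT replicate M1 (-0.22, adjusted p = 0.094) or M4. Atp6v0d1 (-0.091, adjusted p = 0.33), of the membrane sector, and Atp6v1h (0.031, adjusted p = 0.75), of the cytosolic sector, did not pass. Neither transcription factor passed. Tfeb was at medians of 68.8, 69.9 and 68.7 CPM in WT, heterozygous and homozygous mice (log2 fold change 0.023, SE 0.074, adjusted p = 0.89), and Tfe3 was at medians of 220.0, 222.3 and 238.7 CPM (log2 fold change 0.13, SE 0.053, adjusted p = 0.11). These are RNA levels, and the activity of TFEB and TFE3, which depends on their place in the cell, was not measured.

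**Figure D3:**
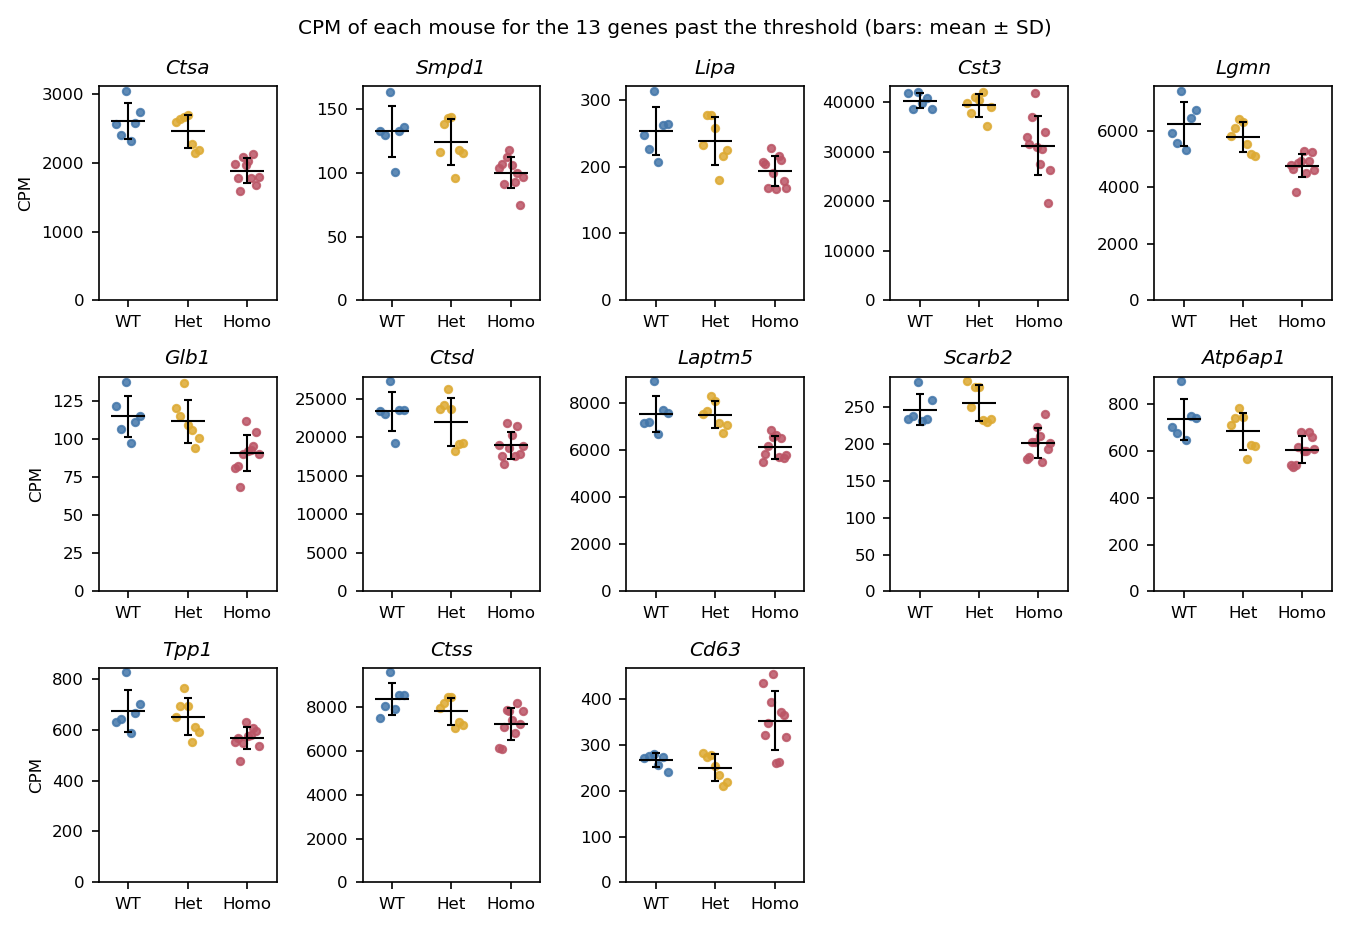
CPM of each mouse (points) with mean ± SD (black), for the 13 lysosomal genes that passed an adjusted p of 0.05 between Homo-cKO and WT mice, ordered by log2 fold change. Homo-cKO means lie lowest in 12 panels and highest in the panel of Cd63. Homo-cKO points are fully apart from the others only for Ctsa.

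The promoters of the lysosomal genes were searched for the E-box CACGTG, which TFEB-family and other factors bind, and for TCACGTGA, an extended form that contains it. Both strands are covered, as each motif reads the same on either. Promoters of RefSeq (GRCm38.p6, from 250 bases before to 50 after a gene's start) were found for 33 of the 37 genes, and Ctsb, Ctsh, Asah1 and Atp6v1h had none. The E-box stood in 10 of 33 (30.3%), against 8.09% of 27025 genes and 11.8% of 9227 tested genes. TCACGTGA stood in 5 of 33 (15.2%), against 1.12% and 2.22% respectively, and the CLEAR palindrome, a longer motif that contains both, in 0 of 33, against 0.370% of genes. Of the 10 genes with the E-box, 4 fell and none rose (median log2 fold change -0.26), and of the 23 without it, 8 fell and 1 rose (median -0.17). A match is a description of letters in this window and no site of binding.

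These stretches, 5′ to 3′ on the gene's strand with the motif in capitals, show the E-box of the 8 genes with the smallest p among the 10. They lie at chr2:164833749-164833778 (plus strand, Ctsa), chr12:102439109-102439168 (minus strand, Lgmn), chr7:142387908-142387937 (minus strand, Ctsd), chr9:114401003-114401062 (plus strand, Glb1), chr13:64370739-64370768 (minus strand, Ctsl), chrX:134601182-134601211 (minus strand, Gla), chr19:4855059-4855118 (plus strand, Ctsf) and chr8:3500462-3500491 (plus strand, Mcoln1). The stretches of Ctsa, Ctsd, Ctsl and Mcoln1 meet an annotated exon of the same gene, that of Gla meets an exon of Hnrnph2, and those of Lgmn, Glb1 and Ctsf meet none.
Ctsa: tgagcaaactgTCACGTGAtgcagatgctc
Lgmn: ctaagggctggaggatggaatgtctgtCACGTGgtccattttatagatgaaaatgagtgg
Ctsd: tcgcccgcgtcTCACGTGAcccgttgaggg
Glb1: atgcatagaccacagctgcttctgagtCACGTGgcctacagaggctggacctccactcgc
Ctsl: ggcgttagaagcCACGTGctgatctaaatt
Gla: tgagatctcggTCACGTGAgcaactctcgg
Ctsf: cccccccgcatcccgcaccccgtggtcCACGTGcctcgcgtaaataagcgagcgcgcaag
Mcoln1: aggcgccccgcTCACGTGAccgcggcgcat

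In these promoters the first base of the E-box lay 12 bases before the start for Ctsa, which has another one 5 bases past it, 49 bases before for Lgmn, 98 for Ctsd, which has another one 245 bases before, and 48 for Glb1. Lamp1, which did not pass against WT, has 4 E-boxes, between 61 and 15 bases before its start.

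Ctsl (ENSMUSG00000021477.8, chromosome 13 from 64359337 to 64370890) encodes cathepsin L, a cysteine protease with broad substrates, and differed between the homozygous mice by animal number. It was at 725.4, 752.6 and 859.3 CPM in WT littermates and 641.5, 741.4 and 869.7 CPM in heterozygous mice, while homozygous mice had 665.6, 1029 and 1287 CPM. The 6 mice numbered 03xx ranged from 665.6 to 1111 CPM and the 4 mice numbered 04xx from 1123 to 1287 CPM. The ranges were thus apart only narrowly, and the share of all genes apart in this way was not counted. In a fit with both ranges as groups, chosen after the data were seen, the log2 difference of 04xx against 03xx was 0.52 (SE 0.11, adjusted p = 0.027 by edgeR). Ctsl was the only one of the 37 genes that passed this test, which 0.442% of all genes did, and 4 of the 37 had an unadjusted p below 0.05, as 9.85% of all genes did. Against WT littermates, Ctsl missed the threshold over all homozygous mice (log2 fold change 0.35, SE 0.12, adjusted p = 0.060). It rose when the 04xx mice alone were compared with WT (0.63, adjusted p = 0.00018) and did not pass with the 03xx mice alone (0.13, adjusted p = 0.49). Mean Ctsl was 792 CPM in homozygous F1, F2, M1 and M2, which had high Fos, and 1125 CPM in the other homozygous mice. Among the 03xx mice with low Fos, F3 was at 790.0 CPM and M3 at 1111 CPM, against 665.6 to 946.0 CPM with high Fos. The 4 mice with high Fos are all numbered 03xx. Number range and Fos can therefore not be told apart for these 4 mice. Of the 50-base stretches of Ctsl transcripts, 27.1% lie opposite an antisense transcript that has no row in the table.

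The other lysosomal genes were followed in the same subsets of homozygous mice. With the 03xx mice alone, 11 lysosomal genes fell and none rose, against 5.87% and 4.91% of all genes. With the 04xx mice alone, 7 fell and 2 rose, against 3.59% and 2.57% of all genes, and of these Ctsl also passed a fold change of 1.5. Without F1, F2, M1 and M2, 7 fell and 2 rose, against 4.83% and 3.51% of all genes. Ctsa, Lgmn, Cst3, Smpd1, Lipa and Laptm5 passed in each of these 3 settings and in all 23 fits that left out 1 mouse. Cst3 varied most among the 04xx mice (19730 to 41770 CPM), which held both its lowest and its highest homozygous values. Glb1 passed with the 03xx mice (-0.43, adjusted p = 0.0084) and not with the 04xx mice (-0.23, adjusted p = 0.21), and the difference between ranges did not pass.

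**Figure D4:**
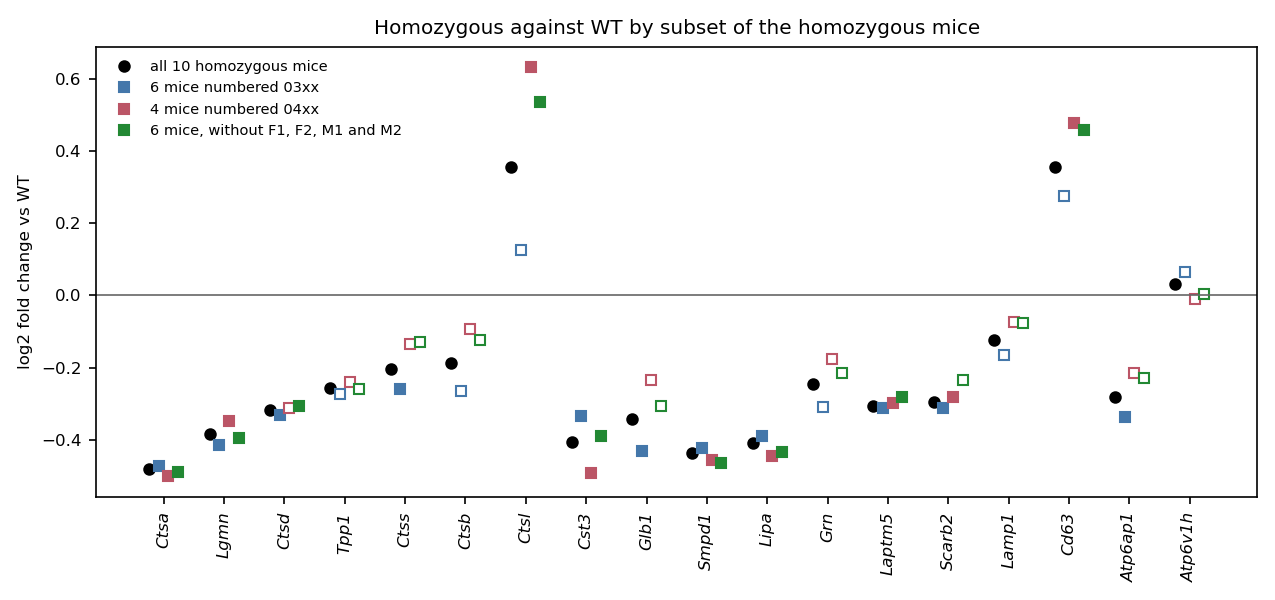
Log2 fold change against WT of the 18 lysosomal genes described with full statistics, over all 10 homozygous mice (black circles), the 6 numbered 03xx (blue), the 4 numbered 04xx (red) and the 6 left without F1, F2, M1 and M2 (green). Squares are filled where the adjusted p was below 0.05. The points of Ctsl are widest apart, from 0.13 to 0.63, while those of Ctsa and Laptm5 lie close together.

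Homozygous mice were also compared with heterozygous mice, the other genotype with Cre, and this comparison shares the homozygous mice with the one above. Of the 37 genes, 10 fell and 3 rose, against 11.7% and 11.1% of all genes. In the genes at or above the lowest of the 37 in mean level, again set by Gla and not matched to the others, 12.8% fell. None passed the fold change of 1.5, which 6.62% of all genes did, and the median log2 fold change was -0.094 (median of all genes -0.0027). Ctsa (-0.38, adjusted p = 0.00051), Scarb2 (-0.34, adjusted p = 0.0014), Cst3 (-0.33, adjusted p = 0.0064), Laptm5 (-0.29, adjusted p = 0.0015) and Lgmn (-0.28, adjusted p = 0.0061) were lowest in p among the falls. Glb1 (-0.30, adjusted p = 0.018), Smpd1 (-0.30, adjusted p = 0.017), Lipa (-0.29, adjusted p = 0.023), Ctsd (-0.20, adjusted p = 0.047) and Grn (-0.25, adjusted p = 0.035) also fell. The genes that rose were Cd63 (0.51, adjusted p = 0.00015), Ctsl (0.40, adjusted p = 0.016) and Atp6v1h (0.15, adjusted p = 0.034). Atp6v1h was at 62.9, 71.8 and 74.6 CPM in heterozygous mice and 73.6, 77.3 and 84.7 CPM in homozygous mice, but WT littermates reached from 67.9 to 82.5 CPM and overlapped the homozygous mice. Grn and Ctsl passed against heterozygous mice and not against WT, whereas Tpp1 (-0.20, adjusted p = 0.054), Ctss (-0.11, adjusted p = 0.23) and Atp6ap1 (-0.17, adjusted p = 0.11) passed against WT only. Whether these pairs of comparisons differ was not tested.

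In heterozygous mice against WT littermates, 0 of the 37 genes passed by edgeR, as 0.0% of all genes did. By edgeR 1 of the 37 had an unadjusted p below 0.05, against 7.73% of all genes, and DESeq2 and limma-voom also called none of them. That gene was Gla, at 7.11, 9.07 and 11.1 CPM in WT littermates and 4.05, 5.67 and 7.70 CPM in heterozygous mice, with 5.27, 7.05 and 8.56 CPM in homozygous mice (log2 fold change of heterozygous against WT -0.61, SE 0.17, adjusted p = 0.45). Log2 fold changes were negative in 34 of the 37 genes, with a median of -0.083 (median of all genes -0.0031). Without WT replicate M1 this median was -0.049, with 29 of the 37 genes negative and 8 positive. The share of all genes with a negative sign was not counted. Both comparisons against WT use the same 6 WT littermates.

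No lysosomal gene passed a test for sex. Between females and males 0 of the 37 genes passed, against 0.0852% of all genes, and 3 had an unadjusted p below 0.05 by edgeR, against 5.83% of all genes, as 3 did by limma-voom. The lowest of these was Cd63, with a log2 difference of females to males of 0.25 (adjusted p = 0.47). For the difference between the sexes in the effect of homozygous deletion, 0 of the 37 genes passed by edgeR, as 0.0% of all genes did, and 0 had an unadjusted p below 0.05, against 4.99% of all genes. Limma-voom gave 0 as well. Cst3 had the lowest p, with a log2 fold change of -0.21 in females and -0.55 in males (adjusted p of the difference 0.96). Only 2 of the WT littermates were females.

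The same pathway was followed through 109 other lysosomal genes, of which 101 could be tested. Between homozygous mice and WT littermates, 26 fell and 6 rose, against 7.09% and 5.66% of all genes, and the median log2 fold change was -0.14. Without WT replicate M1, 14 fell and 3 rose, against 4.39% and 3.71% of all genes. The 22 other glycosidases and sulfatases, most of which degrade glycosaminoglycans and glycoproteins, held the most falls, with 11 lower and 1 higher. Of 9 other lipid and phosphate enzymes 4 fell and none rose, of 22 other membrane proteins and transporters 6 fell and none rose, and of 14 other pump subunits 1 fell and 1 rose. Among 9 sorting receptors 2 fell and 1 rose, among 7 other proteases and inhibitors 1 fell and 1 rose, and among 18 regulators of the TFEB family 1 fell and 2 rose.

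Several of these genes moved further than any of the 37. Npc1, which exports cholesterol from the lysosome, was at 206.1, 219.7 and 263.1 CPM in WT littermates, 188.7, 244.5 and 257.1 CPM in heterozygous mice and 94.1, 132.1 and 147.5 CPM in homozygous mice. All homozygous mice were below every other mouse (log2 fold change -0.85, SE 0.084, adjusted p = 1.0e-06). Part of its transcript, 8.95% of the 50-base stretches, lies opposite transcripts of other genes, and the strand setting of the counting is not given. Npc1 lies on chromosome 18 (from 12189692 to 12236400), as does Bin1. Homozygous mice differ from all other mice in the number of floxed Bin1 alleles. Whether strain sequence linked to the floxed allele plays a part was not tested. Sgsh, a sulfamidase of heparan sulfate, had the largest fall of the 101, from 66.85, 77.3 and 92.8 CPM in WT littermates to 13.3, 25.6 and 66.85 CPM in homozygous mice (log2 fold change -1.34, SE 0.23, adjusted p = 0.00059). Its homozygous levels were 23.9 to 66.85 CPM in the 03xx mice and 13.3 to 27.9 CPM in the 04xx mice. Of the 50-base stretches of Sgsh transcripts, 19.8% lie opposite Card14. Over all mice 6 counts were assigned to Card14 and 18242 to Sgsh.

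Gaa, the acid α-glucosidase of glycogen, fell from 258.2, 340.4 and 414.7 CPM to 157.5, 220.4 and 279.2 CPM (log2 fold change -0.69, SE 0.11, adjusted p = 0.00051). Plbd2 (-0.57, adjusted p = 0.00034), a phospholipase B-like protein, Pla2g15 (-0.53, adjusted p = 0.00035), the lysosomal phospholipase A2, and Slc38a9 (-0.46, adjusted p = 0.00050), an arginine sensor of the mTORC1 pathway, fell so that all homozygous mice were below every other mouse. Of the 50-base stretches of Plbd2 transcripts, 7.5% lie opposite Sds, which had 2 counts over all mice. The rises were led by Cst7, cystatin F, an inhibitor of cathepsins, at 4.20, 5.63 and 7.06 CPM in WT littermates and 6.18, 10.3 and 15.9 CPM in homozygous mice (log2 fold change 0.91, SE 0.21, adjusted p = 0.0059). Atp6v1g1 (0.31, adjusted p = 0.0076), a pump subunit, Ids (0.32, adjusted p = 0.024), iduronate sulfatase, Vps26a (0.22, adjusted p = 0.038), of the retromer, Lamtor5 (0.23, adjusted p = 0.044) and Rheb (0.20, adjusted p = 0.046), both of mTORC1 signalling, also rose. The last 3 were kept in 14, 10 and 5 of the 23 fits that left out 1 mouse.

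Levels of other genes moved with genotype beside these results. Of 9 microglia markers 4 fell between homozygous mice and WT littermates (median log2 fold change -0.20), among them Cx3cr1 (-0.51, adjusted p = 0.00018) and Csf1r (-0.50, adjusted p = 0.0031), changes of the size of those of Ctsa and Smpd1. Csf1r lies on chromosome 18, as Npc1 and Bin1 do. Of 8 neuronal markers, 6 were tested and 3 fell, and their summed level was 12.0 to 35.8 CPM in WT littermates, 12.7 to 31.8 CPM in heterozygous mice and 4.88 to 8.60 CPM in homozygous mice. Of 10 immediate-early genes, 8 were tested and 8 rose, and Btg2 was listed at 0 in every mouse. Of 7 markers of monocytes and neutrophils, 6 were tested and 1 rose, with summed levels of 4.71 to 40.3, 4.43 to 54.4 and 12.6 to 100.7 CPM in the 3 genotypes. Summed levels of immediate-early genes were 438.7 to 606.6, 445.4 to 559.6 and 577.0 to 13020 CPM in WT, heterozygous and homozygous mice. Of the tested markers of other cells, 1 of 5 for astrocytes, 2 of 6 for oligodendrocytes, 1 of 1 for endothelial cells and 0 of 5 for border macrophages fell and none rose. The part of these other genes in the lysosomal results was not tested.

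A few lysosomal genes share reads or overlap with other genes in a way that the counting could split. Glb1 overlaps Tmppe on the same strand, with 9592 counts assigned to Tmppe and 32425 to Glb1 over all mice. Ppt1 overlaps Cap1 and Ctsz overlaps Nelfcd on the opposite strand, with 94849 and 20326 counts assigned to these neighbours. Of the 50-base stretches of Ctsd transcripts, 35.7% also lie in transcripts of Gm49369, which overlaps it on the same strand and has no row in the table. Ctsa (Pltp and Neurl2) and Ctsb (Fdft1) have opposite-strand neighbours with far fewer counts. Neither a strand setting nor the treatment of reads that align to several places is given in the sources used here.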

How the data were processed

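RNA of FACS-sorted microglia from 23 mice was read as single-end 50 bp libraries. The authors aligned reads to mm10 with OmicSoft OSA4 and Ensembl R84 and estimated counts with RSEM. The table that the authors deposited holds expected counts without any scaling for depth or length, of which 82.2% are whole (exactly equal to their rounded value), and they were rounded here. Symbols and transcript lengths (longest principal transcript) came from GENCODE M21 (42929 of 43411 IDs matched). Genes were filtered with filterByExpr, normalized by TMM, and tested with edgeR 4.0.16 in R 4.3.3 (quasi-likelihood, 3 genotypes and sex in one fit, Benjamini-Hochberg over 12908 genes), passing at an adjusted p below 0.05. SE is the fold change over the root of the F statistic. DESeq2 1.42.0, limma-voom (limma 3.58.1), RLE scaling, no filter, no sex term, 2 genotypes only, subsets of homozygous mice and each mouse left out were alternatives, and a fit of 04xx against 03xx was added after the data were seen. The tests were tested on simulated data with known changes.

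The genes and lists were chosen with earlier results of these data known. All 37 genes are accounted for. Full statistics go to Ctsd, Ctsb, Lamp1 and genes passing against WT or heterozygous mice, and pathway genes are named by smallest p, up to 6 in each direction. Depth (10812969 to 16734846 counts) limits genes of a few CPM such as Gla and Cst7. Library batches are not given in the labels. Each library is 1 mouse.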

Additional observations from a re-analysis of the deposited data

Results flagged for a closer look

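Of 111 groups of mice checked (37 genes in 3 genotypes), 6 held a mouse whose gap to the nearest other mouse was large relative to the range on the log2 scale, and chance flags about 1 in 20 groups. Homozygous F3 was low in Lgmn, at 3831 CPM against 4514 to 5292 CPM in the other homozygous mice. Homozygous M4 was high in Gusb, a β-glucuronidase, at 553.8 CPM against 312.3 to 412.0 CPM. WT replicate M1 was low in Psap, at 2554 CPM against 2892 to 3030 CPM in the other WT littermates, and high in Cd68, at 1291 CPM against 1040 to 1116 CPM. Heterozygous M1 was low in Lamp2, at 609.3 CPM against 785.9 to 939.3 CPM, and homozygous F5 was high in Lamp2, at 1033 CPM against 836.0 to 932.2 CPM.

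Ctsl differed between the homozygous mice of both animal-number ranges, with a log2 difference of 04xx against 03xx of 0.52 (adjusted p = 0.027 by edgeR). It was higher in 4 of 4 mice numbered 04xx than in all 6 numbered 03xx, but narrowly so (lowest 1123 CPM against highest 1111 CPM).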

How the results depend on the processing

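The count of lysosomal genes passing between homozygous mice and WT littermates was 13, and between 9 and 15 with DESeq2, limma-voom, RLE scaling, no filter, no sex term, the 2 genotypes alone or subsets of the homozygous mice. It was 0 with a fold change above 1.5 added, for homozygous against WT and for homozygous against heterozygous mice. With the 04xx mice only, 7 rather than 13 genes passed between homozygous and heterozygous mice. The other pathway genes passing against WT numbered 32, but 21 with the 03xx mice only, 13 with the 04xx mice only and 19 without F1, F2, M1 and M2. With each mouse left out, the counts were 9 to 14 for the lysosomal genes against WT (lowest without WT replicate M1), 9 to 15 against heterozygous mice and 0 to 0 for heterozygous against WT, for sex and for the effect by sex. The pathway genes ranged from 17 to 34, with 17, 19 and 21 without WT replicates M1, M3 and M4. Atp6v1h changed sign against WT with the 04xx mice only (-0.0087) and without WT replicate F1, its range with each mouse left out being -0.0066 to 0.047. The 25 named genes with a call kept it in 702 of 800 refits and lost it in 98, and the 5 without one passed the threshold in 10 refits. The causes were not tested. No paired analysis was possible because the replicate names only number the mice within a group. Depth limits Gla and Cst7, at a few CPM.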
